A study of Mus musculus with 142 samples.

Results

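The loci described here are those of 9 transcription factors that direct cells into particular lineages and that are known as silent or nearly silent in embryonic stem cells (ESCs): Neurog2, Pax6 and Olig2 of the nervous system, Gata4, Gata6, Sox17 and Foxa2 of the endoderm, Eomes of the mesoderm and endoderm, and Myod1 of skeletal muscle. A locus was taken as all 50 kb windows that overlap the gene body in mm10 or the 100 kb on either side of it. This gave 47 of the 49264 windows of the 19 autosomes (7 windows for Gata4, 5 for each of the others), and the 9 loci stand among 20753 protein-coding loci defined in the same way, of which 19975 had enough values. The rule for a locus uses its gene coordinates and no value of replication timing (RT). Expression was not measured in the values used here, so the word silent is background only.

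RT was measured by E/L Repli-seq, in which DNA made during a BrdU pulse of 2 h is compared between cells taken from early and from late S phase by flow sorting. The value is log2(E/L), positive where a window replicates early and negative where it replicates late, on a scaled profile whose 0 is not an absolute midpoint of S phase. The cells were clones of F121-9, a hybrid mouse ESC line grown in 2i + LIF with a musculus and a castaneus copy of each chromosome, so that each library gives a profile for either homolog. All clones carry CRISPR-mediated deletions in the Dppa2/4 domain of chromosome 16, which the study made to find what keeps that domain early.

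There were 66 libraries of 53 clones from 26 cell lines (1 to 5 clones each), a cell line being a named combination of deletions. The names give the deleted pieces: A, B and C are the early replication control elements of the domain, OSN a binding site of Oct4, Sox2 and Nanog in the element named before it (COSN12 lacks sites 1 and 2 of C), TSS a transcription start site, Z a further OSN site, and CL20k, CR11.8k, CR13.4k and CR14.6k stretches of C. The cell lines were A.B.COSN123, A.BOSN1.COSN123, A.BOSN12.BTSS.COSN123, A.BOSN12.COSN123, A.COSN12, A.COSN123, AOSN.B.COSN123, AOSN.BOSN12.COSN123, AOSN.COSN12, AOSN.COSN123, ATSS.BTSS.CTSS, BOSN1.COSN123, BOSN12.COSN123, BTSS, BTSS.CTSS, CL20k, COSN1, COSN1.2.8k, COSN12, COSN123, CR11.8k, CR13.4k, CR14.6k, CTSS, Z.AOSN.COSN123 and Z.B.C. The deletion lies on the musculus homolog in 51 clones and on castaneus in 2, and 8 clones carry a deletion of B, ATSS or BTSS on castaneus as well (4, 3 and 1 clones). No library of the unedited line was used here, so what all clones share cannot be separated from the deletions. Clones of a cell line are separate isolates, some were made in an already edited clone, and COSN123 is a single clone measured in repeat cultures. The files hold ratios, so depth is unknown, and the share of windows with a value ran from 73.8% to 93.8% per profile. Chromosome 14 has no castaneus values in the 2 Z.B.C clones and chromosome 16 none on an allele in clone 18 of COSN1.2.8k, so Gata4 has 51 clones and Olig2 52.

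In most cell types early replication goes with open, transcribed chromatin and late replication with the nuclear lamina, and many domains change their timing as ESCs differentiate. Genes of lineage regulators are a known exception to a simple rule. In ESCs many have CpG-rich promoters held by Polycomb proteins, poised rather than lamina-bound, and so may lie in early domains without being transcribed. The order of the 9 loci shows where each stood between early and late replication. Chromatin state, Polycomb binding and lamina contact were not measured.

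Of the 9 loci, 7 had a mean level above 0, and thus replicated early on this scale, and 2, Gata6 and Foxa2, were late. Among all protein-coding loci 79.4% had a mean above 0, close to the share among the 9. None of the 9 was above the median of all loci, which was 1.08 (quartiles 0.24 and 1.26). The level of a locus is the mean of its musculus and castaneus values, averaged over libraries of a clone.

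**Figure D1:**
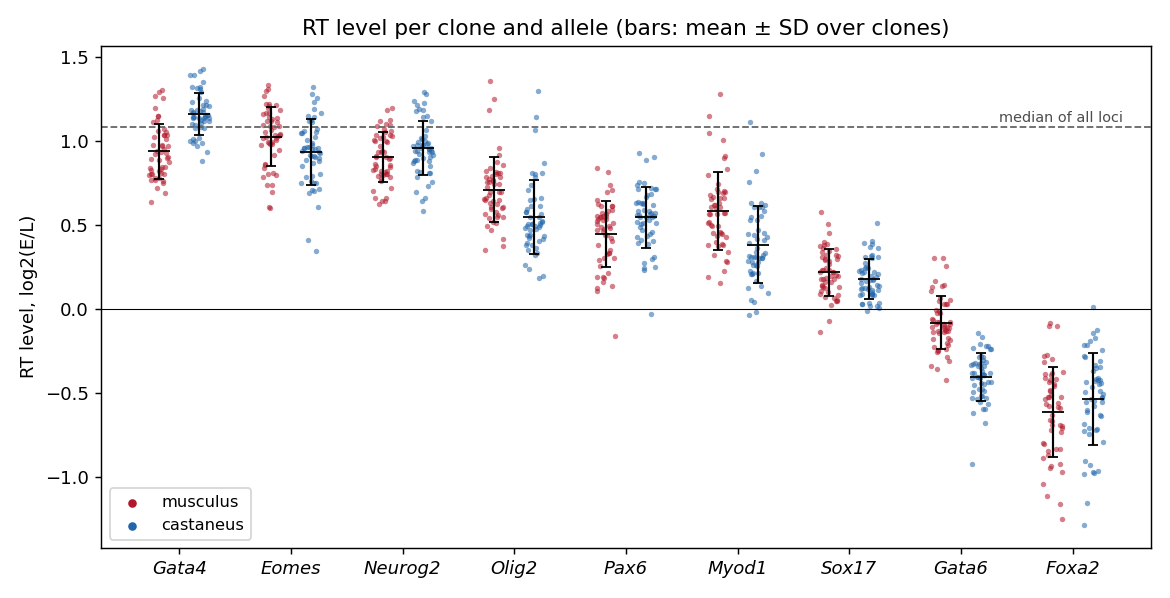
RT level, log2(E/L), of each clone (points) at the 9 loci, for the musculus homolog (red) and the castaneus homolog (blue), with bars for the mean ± SD over clones. The dashed line is the median of all protein-coding loci, 1.08. The means of Gata4, Eomes and Neurog2 lie near it, the castaneus mean of Gata4 (1.16) above it, and only Gata6 and Foxa2 have means under 0.

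Gata4, a zinc finger factor of heart and primitive endoderm, had the highest level. Its gene lies on the minus strand of chromosome 14 at 63198922 to 63271692, with Ctsb, Fdft1 and Neil2 in its range and Defb42 and Blk partly in it. The level was 0.83 in the lowest of 51 clones, 1.03 in the median and 1.35 in the highest, with a mean of 1.05 ± 0.13 (SD). Eomes, a T-box factor of primitive streak and cortex, lies on chromosome 9 at 118478212 to 118486132 (plus strand), with Golga4 in its range. It ran from 0.48 over a median of 0.99 to 1.29, with a mean of 0.98 ± 0.17 (n = 53). Neurog2, a basic helix-loop-helix factor that starts neuronal differentiation, lies on chromosome 3 at 127633135 to 127635631 (plus strand), with Larp7, Zgrf1 and the Mir302 and Mir367 microRNA genes, known from pluripotent cells, in its range and Alpk1 partly in it. It ran from 0.65 over 0.92 to 1.23, with a mean of 0.93 ± 0.12 (n = 53). All clones were above 0 at these loci. They stood at percentiles 48, 45 and 43 of all loci.

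The next loci were early but farther below the median of all protein-coding loci. Olig2, the factor of motor neuron and oligodendrocyte progenitors, lies beside Olig1 on chromosome 16 at 91225457 to 91228677 (plus strand), on the edited chromosome. Its level ran from 0.27 over 0.60 to 1.33 (mean 0.63 ± 0.20, n = 52). Pax6, the paired-box factor of eye and neural tube, with Elp4 reaching into its range from the right, lies on chromosome 2 at 105668900 to 105697364 (plus strand). It ran from -0.096 over 0.52 to 0.87 (mean 0.50 ± 0.18, n = 53), and 52 of 53 clones were above 0, the exception being clone A10 of BTSS. Myod1, the muscle determination factor, lies on chromosome 7 at 46376474 to 46379099 (plus strand), with Kcnc1 in its range and Otog and Sergef partly in it, and ran from 0.077 over 0.45 to 1.19 (mean 0.48 ± 0.23, n = 53). Sox17, an HMG-box factor of definitive endoderm with Rp1 partly in its range (chromosome 1, 4490931 to 4497354, minus strand), was nearest to 0. It ran from 0.0052 over 0.18 to 0.49 (mean 0.20 ± 0.12, n = 53), above 0 in all clones. These 4 loci stood at percentiles 33.6, 30.6, 30.3 and 24.2.

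Foxa2, a forkhead factor of endoderm, node and floor plate, was the latest. It lies on the minus strand of chromosome 2 at 148042877 to 148046969, with no other protein-coding gene in range. Its level ran from -1.27 over -0.54 to -0.035, with a mean of -0.58 ± 0.26 (n = 53), percentile 12 of all loci, and no clone was above 0.

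The promoters of 5 loci are printed in order of level, from early to late, since CpG content is what the poised state of such genes is known for. Each is the 250 bases before the RefSeq start (GRCm38.p6, that is mm10), 5′ to 3′ on the gene's strand, in lower case with every CG in capitals: chr9:118477939-118478188 for Eomes, chr3:127632886-127633135 for Neurog2, chr16:91225300-91225549 for Olig2 and chr2:105668646-105668895 for Pax6, all plus, and chr2:148046970-148047219 for Foxa2, minus.
Eomes: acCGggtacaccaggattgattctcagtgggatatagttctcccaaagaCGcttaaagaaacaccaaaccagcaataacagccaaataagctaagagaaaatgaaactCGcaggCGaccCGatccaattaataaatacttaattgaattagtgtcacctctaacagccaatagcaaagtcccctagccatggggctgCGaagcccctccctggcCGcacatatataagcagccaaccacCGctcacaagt
Neurog2: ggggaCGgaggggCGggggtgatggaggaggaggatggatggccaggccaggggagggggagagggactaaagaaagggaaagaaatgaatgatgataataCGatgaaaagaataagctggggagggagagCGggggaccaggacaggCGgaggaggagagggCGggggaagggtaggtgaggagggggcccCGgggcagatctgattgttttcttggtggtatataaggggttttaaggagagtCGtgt
Olig2: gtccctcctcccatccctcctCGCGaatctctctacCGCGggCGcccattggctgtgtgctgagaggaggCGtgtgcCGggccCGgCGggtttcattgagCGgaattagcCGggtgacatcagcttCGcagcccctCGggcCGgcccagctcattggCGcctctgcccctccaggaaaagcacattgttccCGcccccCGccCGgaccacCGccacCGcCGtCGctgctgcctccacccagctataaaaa
Pax6: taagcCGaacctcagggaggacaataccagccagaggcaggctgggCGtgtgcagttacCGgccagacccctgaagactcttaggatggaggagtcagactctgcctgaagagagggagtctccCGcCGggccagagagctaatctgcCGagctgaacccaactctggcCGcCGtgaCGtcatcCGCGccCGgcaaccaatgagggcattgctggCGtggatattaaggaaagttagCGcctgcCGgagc
Foxa2: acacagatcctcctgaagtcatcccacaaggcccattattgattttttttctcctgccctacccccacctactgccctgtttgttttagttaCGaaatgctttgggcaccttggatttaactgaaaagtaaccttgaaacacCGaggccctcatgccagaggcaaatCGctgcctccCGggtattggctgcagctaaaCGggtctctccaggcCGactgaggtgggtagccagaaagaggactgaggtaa
The Eomes and Neurog2 promoters hold 8 CG each, the Olig2 promoter 22, the Pax6 promoter 15 and the Foxa2 promoter 6, so the counts did not follow the order of the levels. CG reads the same on either strand. Of 32851 RefSeq promoters cut to the same length, 43.0% hold at least as many as Eomes and Neurog2, 14.8% hold at least as many as Olig2, 27.3% at least as many as Pax6 and 50.4% at least as many as Foxa2, and the median is 6. The counts describe the letters of these windows and say nothing of Polycomb binding, which was not measured. Gata4, Sox17 and Myod1 had no entry in the table. The Gata6 promoter is not reported here, so Foxa2 is the only late locus among the 5 printed.

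In order of level, Gata4 and Eomes differed by 0.078 ± 0.19 (SD of the difference within clones, 29 of 51 clones in that order), and Eomes and Neurog2 by 0.048 ± 0.18 (36 of 53). The 3 earliest loci thus did not differ beyond the spread between clones. Neurog2 was above Olig2 by 0.30 ± 0.23, in 48 of 52 clones. Olig2 and Pax6 (0.14 ± 0.24, 35 of 52) and Pax6 and Myod1 (0.013 ± 0.32, 33 of 53) did not differ beyond their spread. From there each step exceeded it: Myod1 over Sox17 by 0.28 ± 0.20 (50 of 53 clones), Sox17 over Gata6 by 0.44 ± 0.15 (53 of 53) and Gata6 over Foxa2 by 0.33 ± 0.30 (47 of 53).

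Gata6, the other GATA factor here and a factor that specifies primitive endoderm, lies on the plus strand of chromosome 18 at 11052064 to 11085635 with no other protein-coding gene in its range. Its level ran from -0.64 over -0.26 to 0.078, with a mean of -0.24 ± 0.14 (n = 53), percentile 16.9. Only 2 clones were above 0. Gata4 and Gata6, relatives that act together in endoderm, therefore lay 7 places apart in the order of the 9, one at its early and the other near its late end.

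The 9 loci also differed in the shape of the domain around them. In what follows left and right mean lower and higher chromosome coordinates, whatever the strand of the gene, and distances are from the gene start.

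**Figure D2:**
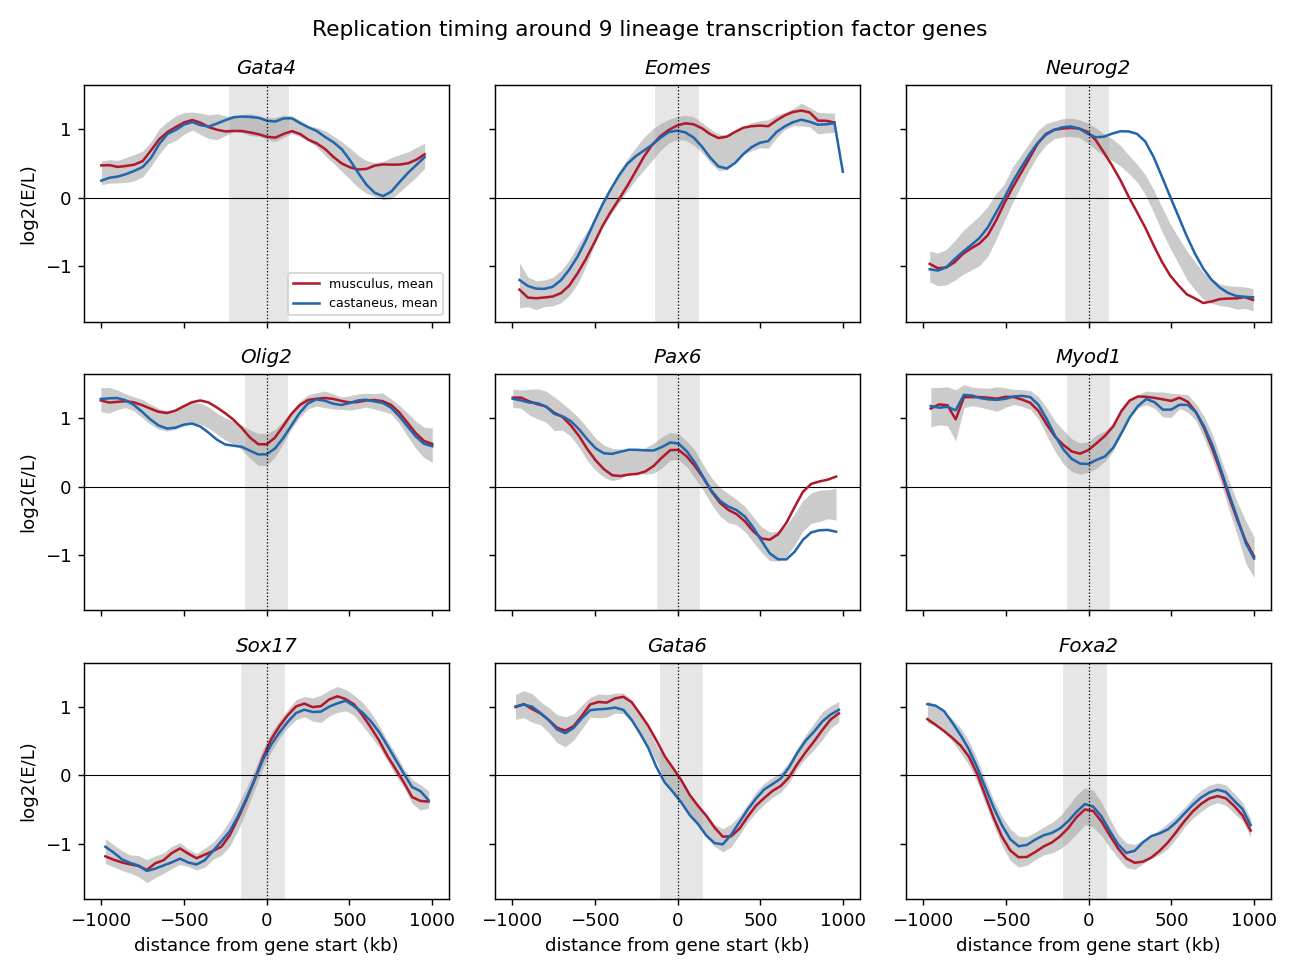
Mean log2(E/L) of the musculus (red) and castaneus (blue) homologs against the distance from the gene start in kb (right is higher coordinate), for 1000 kb on each side of the 9 genes. The dark band is the mean ± SD over clones of the mean of both homologs and the light column the range of the locus. Gata4 lies on a plateau, Olig2 and Myod1 in dips, Sox17 and Gata6 on slopes, and the homologs part to the right of Neurog2.

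Gata4 lay on a plateau. Its windows had means between 1.00 and 1.08, and no window within 1000 kb had a mean under 0. The level was 1.09 at 500 kb to the left but fell to 0.50 at 500 kb to the right, with the lowest window, 0.25, at 703.3 kb. Neurog2 was the top of an early domain with late flanks: the level was 0.93 at 250 kb to the left and 0.49 at 250 kb to the right, and became negative at 500 kb and 400 kb. Eomes had an early right side, 0.93 at 500 kb, and a late left side, which turned negative at 400 kb and was -0.51 at 500 kb.

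Olig2 and Myod1 formed local minima inside early domains. At the start of Olig2 the mean was 0.55, the lowest of all windows within 1000 kb, while it was 1.04 at 500 kb to the left and 1.23 at 500 kb to the right. At Myod1 the start window had 0.43, against 1.30 and 1.19 at the same distances. The start of Olig2 was thus the bottom of its dip, while at Myod1 the lowest window, with 0.41, lay next to the start on the left.

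Foxa2 was the reverse. Its start window had a mean of -0.45, while the profile was -0.96 at 250 kb to the left and -1.17 at 250 kb to the right, so the gene lay on a local rise in a late domain. Pax6 lay on a shoulder: its start window had 0.58, the profile was 0.36 at 250 kb to the left and turned negative 200 kb to the right.

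Sox17 and Gata6 lay on timing transition regions. Across the 5 windows of Sox17 the mean went from -0.35 to 0.68, at 0.52 per 100 kb towards higher coordinates. Across those of Gata6 it went from 0.089 down to -0.58, by -0.34 per 100 kb. The level given above for either is therefore the mean of a slope, and the sign for Gata6 holds for its start window as well (-0.23).

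Each library holds both homologs, so the musculus minus castaneus difference is measured within a library. Gata6 was the only one of the 9 with a difference that passed both an adjusted p under 0.05 (moderated test of limma across loci, Benjamini-Hochberg) and a size of 0.25. Among all tested loci 11.9% passed, against 1 of 9 here. Without the size limit 54.4% of all loci passed, and so did 8 of the 9, Neurog2 being the exception. Strain and parent of origin cannot be told apart in this cross, and the edited homolog is musculus in nearly all clones. The test took the clones as independent. Clones of a cell line share deletions and some were made in an already edited clone, so its SE and p may be too small.

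**Figure D3:**
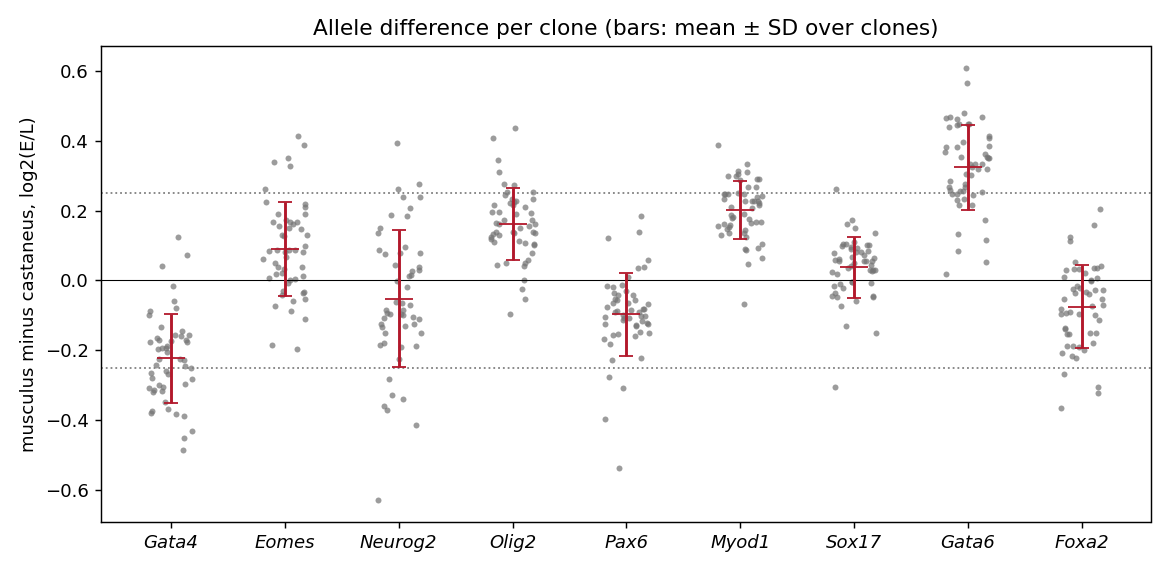
musculus minus castaneus difference in log2(E/L) of each clone (points) at the 9 loci, with bars for the mean ± SD over clones and dotted lines at the size limit of 0.25 on either side of 0. All 53 clones lie above 0 at Gata6, and Neurog2 has the widest scatter.

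At Gata6 the musculus homolog had a mean of -0.082 and the castaneus homolog of -0.41. The difference was 0.019 in the lowest clone, 0.33 in the median and 0.61 in the highest, with musculus earlier in 53 of 53 clones (mean 0.32 ± 0.017, SE, adjusted p = 1.51e-26, limma). It was past the limit in all 5 windows, from 0.27 to 0.38. In the plot of profiles the slope of the castaneus homolog lies to the left of that of musculus.

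Gata4 had the opposite sign. Its musculus homolog had 0.94 and castaneus 1.16, with castaneus earlier in 48 of 51 clones (range -0.48 to 0.12, median -0.23, mean -0.22 ± 0.018, SE, adjusted p = 1.67e-17, limma). All 7 windows gave between -0.24 and -0.20. It missed the size limit.

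Myod1 and Olig2 were earlier on musculus, by less than the limit. At Myod1 the homologs had 0.58 and 0.38, the difference ran from -0.069 over 0.21 to 0.39, and musculus was earlier in 52 of 53 clones (mean 0.20 ± 0.012, SE, adjusted p = 7.97e-23, limma). It was 0.11 in the first window and 0.30 in the last. At Olig2 the homologs had 0.71 and 0.55, with a range from -0.097 over 0.16 to 0.44 and musculus earlier in 49 of 52 clones (mean 0.16 ± 0.015, SE, adjusted p = 3.94e-15, limma).

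The other differences were small. Eomes was earlier on musculus by 0.091 (41 of 53 clones, adjusted p = 1.49e-05) and Sox17 by 0.037 (37 of 53, adjusted p = 0.0112). The castaneus homolog was earlier at Pax6 by 0.097 and at Foxa2 by 0.075, in 46 and 38 of 53 clones (limma, adjusted p = 4.77e-07 and 6.99e-05). Neurog2 had a mean of -0.052 ± 0.026 (SE), with a range from -0.63 over -0.084 to 0.39 and musculus earlier in 21 of 53 clones (limma, adjusted p = 0.0835). The value depended on the width taken, since the mean was 0.027 with the gene body alone and -0.22 with 250 kb on each side.

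Next to Neurog2 the homologs parted. The difference was 0.027 in the window of the gene start, -0.23 in the last window of its range, 91.9 kb to the right, and -1.15 at 291.9 kb. At 391.9 kb (chromosome 3, 128000001 to 128050000) musculus had a mean of -0.69 and castaneus of 0.60, a difference of -1.29 ± 0.30 (SD), with castaneus earlier in 53 of 53 clones. The early domain that holds Neurog2 thus reached farther to the right on castaneus. In 10 of the 40 windows within 1000 kb of the gene start the mean difference was over 0.5 in size.

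Pax6 was the other locus with such windows, 7 of 40. Its largest difference, 0.81 ± 0.14 (SD), was at 956.1 kb to the right (musculus at 0.15, castaneus at -0.66), with musculus earlier in 53 of 53 clones. Around the other 7 genes no window within 1000 kb passed 0.5, and the largest sizes ran from 0.16 at Sox17 to 0.47 at Olig2. These windows were picked as the largest after their values were seen and are given without a test.

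The level varied between clones with an SD of 0.12 at Neurog2 and Sox17 up to 0.26 at Foxa2. The median SD of the 9 was 0.17, and that of all loci 0.14. Foxa2 stood at percentile 97.2 of all loci by its SD, Myod1 at 90.8 and Olig2 at 83.7, while Neurog2 was at 31.0. Part of the spread at Foxa2 lay between cell lines: the pooled SD within cell lines was 0.17 there and 0.12 between libraries of a clone. At Neurog2 the corresponding values were 0.099 and 0.11, about as large as the SD over all clones.

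The allele difference ranked otherwise. Neurog2 had the largest SD of the 9, 0.20 (percentile 93.7 of all loci), and Myod1 and Sox17 the smallest, 0.083 and 0.088 (percentiles 3.22 and 5.73). Thus Myod1 had a wide spread in level and a narrow one in the difference of its homologs, and Neurog2 a narrow and a wide one.

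Whether the level moved with the deletions carried was asked by a moderated F test (limma) over the 19 cell lines that had 2 or more clones (46 clones). Of these clones 45 had a value at Olig2 and 44 at Gata4, which had none in Z.B.C. The test passed an adjusted p of 0.05 at 7 of the 9 loci, and at 67.0% of all loci tested. Cell lines may also differ in when they were made and sequenced, which cannot be told apart from the deletion. Clones of a cell line were pooled even where their deletions on castaneus differ, as in A.B.COSN123, AOSN.B.COSN123 and BTSS.CTSS. By the paper, the 2 clones of CTSS carry the deletion on different homologs. Pax6 had the lowest adjusted p (2.9e-05, F = 6.66), followed by Foxa2 (0.000326), Eomes (0.00038), Gata4 (0.000402), Olig2 (0.00047), Myod1 (0.00104) and Gata6 (0.0144). Neurog2 (0.0607) and Sox17 (0.065) missed it, though without cell line COSN1.2.8k the Neurog2 value was 0.00818, and without CR14.6k the Gata6 value was 0.0548.

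**Figure D4:**
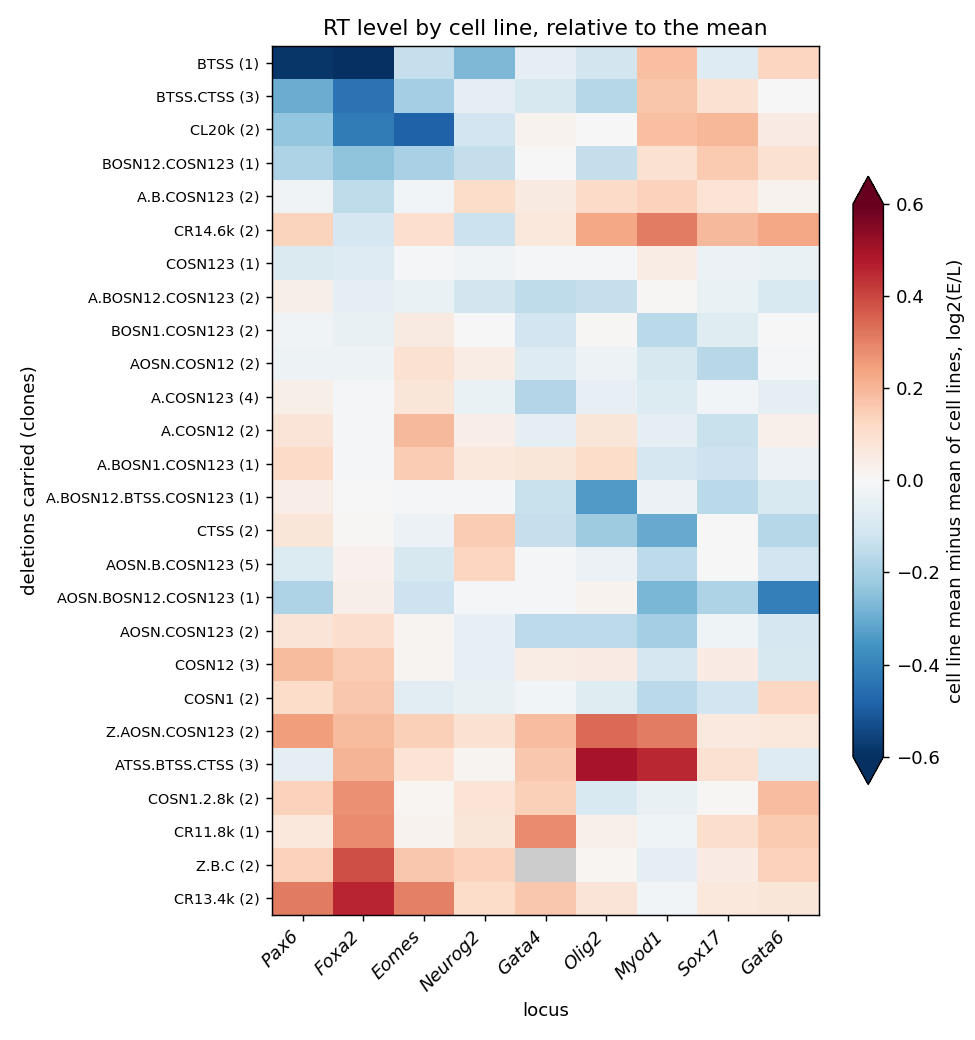
Mean RT level of each of the 26 cell lines minus the mean of the cell lines, in log2(E/L), at the 9 loci (columns), with the number of clones in brackets and grey where there is no value. Pax6, Foxa2 and Eomes are low together in BTSS.CTSS and CL20k and high together in CR13.4k, and Olig2 and Myod1 are high together in ATSS.BTSS.CTSS.

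Among the 19 cell lines with 2 or more clones, Pax6, Foxa2 and Eomes shared their extremes. In the 2 clones of CR13.4k Pax6 had 0.80, Foxa2 -0.13 and Eomes 1.28, the highest means of these cell lines. The 3 clones of BTSS.CTSS had the lowest means at Pax6 (0.19) and Foxa2 (-1.03), with 0.77 at Eomes. CL20k was lowest at Eomes (0.49, clones 0.48 and 0.50) and low at Pax6 (0.25) and Foxa2 (-1.01). The single clone of BTSS, outside the test, was lower still at Pax6 (-0.096) and Foxa2 (-1.27).

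Among the same 19 (18 with 2 or more clones at Olig2 and at Gata4), Olig2 and Myod1 had their highest means in ATSS.BTSS.CTSS, 1.11 and 0.93. Their lowest were in CTSS, 0.40 and 0.18. The clones of ATSS.BTSS.CTSS ranged from 0.87 to 1.33 at Olig2 and from 0.68 to 1.19 at Myod1. Gata6 was also lowest in CTSS (-0.41) and highest in CR14.6k (-0.0020), and Gata4 ran from 0.88 in A.COSN123 to 1.24 in Z.AOSN.COSN123. Some cell lines of a single clone lay outside these ranges: Olig2 had 0.27 in A.BOSN12.BTSS.COSN123, Gata6 -0.64 in AOSN.BOSN12.COSN123 and Gata4 1.34 in CR11.8k. The levels at Foxa2 and Gata6 were below 0 in each cell line tested, and those at the other loci above 0.

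Across clones, the levels of the 36 pairs of loci correlated with r from -0.30 to 0.80 (Pearson, median 0.28), given as a description since the loci come from the same libraries. The highest was Pax6 with Foxa2, 0.80 over 53 clones (Spearman 0.71), 0.74 without the 2 clones farthest from the median and 0.70 within cell lines. These genes lie on the same chromosome but far apart. Olig2 and Myod1, on different chromosomes, had 0.71 over 52 clones (Spearman 0.53), 0.56 without the 2 farthest and 0.83 within cell lines. Gata4 with Olig2 had 0.69, Eomes with Foxa2 0.66 and Eomes with Pax6 0.64. The lowest was Eomes with Sox17, -0.30. With each profile centred on its own median, r ran from 0.097 to 0.87 over the 36 pairs (median 0.57), so the 9 pairs below 0 were then above it, Eomes with Sox17 at 0.20. The share of windows with a value correlated with the level of the 9 loci by r from -0.35 at Gata6 to 0.27 at Foxa2 (51 to 53 clones). Its part in the levels was not tested.

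Of all loci on other chromosomes, the level that followed Pax6 most closely across clones was that of Nr2f1, an orphan nuclear receptor of neural development (r = 0.93 over 51 clones), and for Foxa2 that of Sp8, a zinc finger factor of limb and forebrain (r = 0.92 over 53). For Myod1 it was Aipl1 (0.90), for Olig2 Chst1 (0.88), for Gata4 Stk33 (0.83), for Sox17 Pglyrp4 (0.83), for Eomes Tent4b (0.82), for Gata6 Nlrp4e (0.77) and for Neurog2 Scin (0.68). Each is the highest of at least 17053 correlations and is a description of these libraries.

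The allele difference moved with the cell line at 1 of the 9 loci, Neurog2 (limma F test, F = 5.12, adjusted p = 0.00138, 46 clones), and at 10.3% of all loci tested. Gata6 was next with an adjusted p of 0.0541. In COSN12 the Neurog2 difference was -0.44, with its 3 clones between -0.63 and -0.34, and in A.BOSN12.COSN123 it was 0.32, with clones at 0.24 and 0.39. These were the lowest and the highest of the 19 cell line means, picked after the values were seen. Of the 19 cell lines 7 had a mean above 0. Clones that differ in their deletions on castaneus were pooled here as well. With any of the 26 cell lines left out the adjusted p of the F test stayed between 0.000845 and 0.016, but with the gene body alone it was 0.0545. Only the 19 cell lines with 2 or more clones enter this test, so leaving out any other could not change it.

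A further question was whether the loci moved with the delay of the Dppa2/4 domain of the same library. Over 52 clones the musculus minus castaneus difference of that domain (chromosome 16, 48200001 to 48600000) ran from -1.89 over -0.48 to 0.15. The slope of a locus's own difference on it was 0.99 ± 0.024 (SE) at Dppa2 and 1.05 ± 0.034 at Morc1, which lie in the domain. These 2 loci share windows with the domain, so their slopes are no independent check of the fit. None of the 9 loci passed (limma, adjusted p of 0.864 or more), none had an unadjusted p under 0.05, and 0.0859% of all loci passed. Olig2, on the same chromosome, had a slope of -0.012 ± 0.035 (SE), with a 95% interval from -0.081 to 0.057.

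The 9 loci were set beside 43 other lineage factors and 13 pluripotency factors, which ESCs do express. Of the other lineage factors 33 of 43 had a level above 0, with a median of 0.70, and 15 were above the median of all loci. Among these 43 is Olig1 (0.70), which lies in the range of Olig2 and so shares windows with it. The median of the 9 was 0.50. All 13 pluripotency factors were early, 12 of them above the median of all loci, with a median of 1.23.

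**Figure D5:**
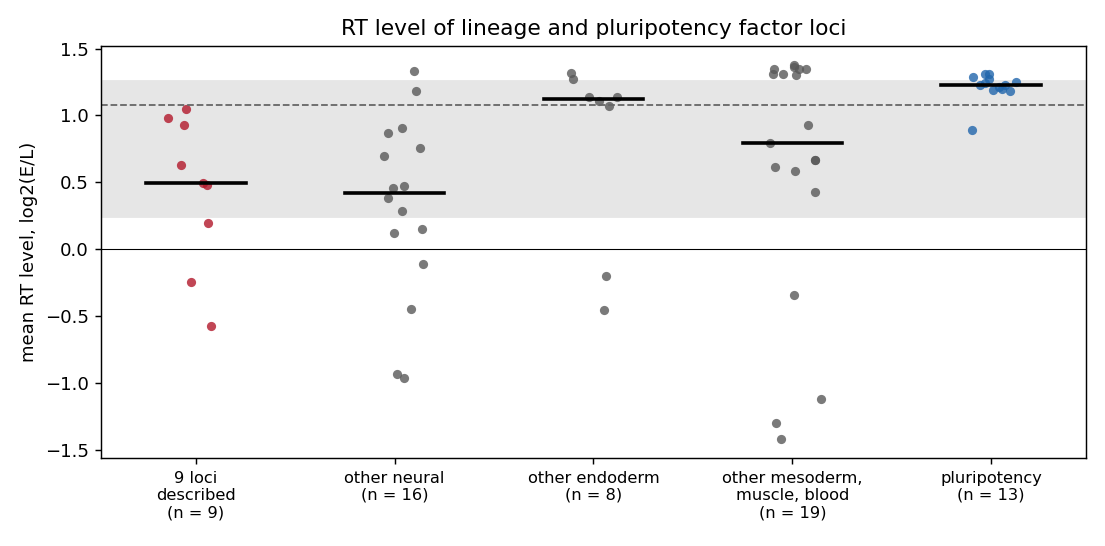
Mean RT level, log2(E/L), of the 9 loci, of 43 other lineage factor loci by lineage and of 13 pluripotency factor loci (points), with a bar at each median. The dashed line and the grey band are the median (1.08) and quartiles of all protein-coding loci. The lineage factors span nearly the whole range, while the pluripotency factors sit between 0.89 and 1.31.

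The other lineage factors spanned a wider range than the 9. The highest were Mixl1 (1.38 ± 0.098, SD), a primitive streak homeobox gene, Gata2 (1.36 ± 0.080) of blood progenitors and Tbx6 (1.35 ± 0.12) of paraxial mesoderm. The lowest were Myf5 (-1.42 ± 0.15), which like Myod1 determines muscle, Isl1 (-1.30 ± 0.19) of motor neurons and heart, and Twist1 (-1.12 ± 0.16) of mesenchyme. The muscle factors Myod1 and Myf5 thus lay 1 on each side of 0. Among pluripotency factors Tfcp2l1, Esrrb and Sall4 were the highest (1.31, 1.31 and 1.29) and Zfp42, Klf2 and Nanog the lowest (0.89, 1.18 and 1.19). An allele difference was called at 2 of the 43 other lineage factors, Irx3 (-0.30) and Gsc (0.44), and at 1 of the 13 pluripotency factors, Zfp42 (0.30), against 11.9% of all loci.

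The order of the 9 loci by level was not that by GC content. The GC content of the windows of a locus correlated with its level by r = 0.72 over all loci, a correlation across genes, which are not independent. Sox17 had the lowest GC content of the 9 (41.0%, percentile 18.3) and lay near 0. Myod1 had the highest (percentile 89.0 of all loci), with a level at percentile 30.3. Neurog2, with 42.7%, was at percentile 32 for GC and 43 for level, and Foxa2, with 43.3%, at 37 and 12. The number of protein-coding genes within 1000 kb, 8 at Neurog2 and Sox17 and 68 at Myod1, correlated with the level by 0.25 over all loci.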

How the data were processed

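E/L Repli-seq of F121-9 clones was analysed from 1 table of log2 values. According to the study's methods the authors trimmed reads with TrimGalore and cutadapt, aligned them with bowtie2 to an N-masked mm10 genome, assigned them with SNPsplit to the homologs, called musculus (129) and castaneus (CAST) here, removed duplicates with Samtools, counted them in 50 kb windows with bedtools, and took the log2 ratio of early over late. The deposited log2 values were also scaled, quantile-normalised and loess-smoothed over 300 kb, which ties neighbouring windows and flattens narrow features. Tool versions are not given in the sources used here.

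All 138 columns were used. Repeat runs of 3 libraries were averaged, libraries were averaged per clone, and the clone was the unit of the main fits. The labels list 5 further libraries that were not analysed here. Gene bodies came from GENCODE vM21, 54 ambiguous symbols were left out, and a locus needed values in 50% of its windows on an allele. The musculus minus castaneus difference was tested against 0, the cell line effect by a moderated F over cell lines with 2 or more clones, and the slope by regression on the Dppa domain difference, all with limma 3.58.1 in R 4.3.3, adjusted over all loci (Benjamini-Hochberg), and tested on simulated data. A called difference also needed a size of 0.25. The members and gene lists were chosen with earlier results of these data known. Genes named beside the 9 were the 3 highest and 3 lowest of each list, genes in range, and the locus on another chromosome most correlated with each. Irx3, Gsc, genes partly in range and, for its allele difference, Zfp42 were added after values were seen.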

Additional observations from a re-analysis of the deposited data

Results flagged for a closer look

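The musculus minus castaneus difference at Neurog2 differed between cell lines, by the moderated F test of limma over 46 clones, with an adjusted p of 0.00138. COSN12 had the lowest mean (-0.44) and A.BOSN12.COSN123 the highest (0.32). The part of culture, sequencing run or deletion in this was not tested.

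In 54 groups of 4 to 10 clones or libraries, 2 values stood apart by Dixon's criterion, which chance alone meets in about 1 in 20 groups. Clone C9 of A.COSN123 had an Olig2 difference of 0.272, while the other clones of that cell line lay between 0.125 and 0.137 (n = 4). Among the 4 libraries of COSN123 clone A10, library 2 had a Myod1 level of 0.811, while the others lay between 0.424 and 0.44.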

How the results depend on the processing

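Under every setting tried, 7 of the 9 loci had a level above 0, and the levels and called differences kept their sign. The SD of the level between clones stayed within 1.5 times its main value at each of the 9. Changes of sign were in what was near 0. The Neurog2 allele difference was 0.027 with the gene body alone, 0.000296 with the median over windows, -0.218 with 250 kb on each side and -0.0662 to -0.0283 with a cell line left out. Slopes on the Dppa domain difference, none of which passed, changed sign: with the gene body alone Pax6 had -0.0218 and Gata6 -0.00469, with the median Pax6 -0.00472 and Gata4 -0.00315, without libraries that lack an autosome Pax6 -0.0114, Gata4 -0.0211 and Gata6 -0.0136, and with a wider stretch taken as the domain Olig2 0.0243. With each cell line left out in turn the slope ran from -0.0777 to 0.0336 at Neurog2, -0.0104 to 0.0259 at Pax6, -0.0307 to 0.00881 at Olig2, -0.0162 to 0.0285 at Gata4 and -0.0162 to 0.0354 at Gata6. Loci with a called allele difference numbered 2381, against 10838 with no size limit (8 of the 9), 645 with a limit of 0.5 (0 of the 9), and 8872 where single windows were the features. Loci with a cell line effect on the difference numbered 2048, against 826 with the gene body alone (0 of the 9), 3526 with 250 kb on each side (3 of the 9), 1300 with the median, 1234 without libraries that lack an autosome, and 1359 to 2203 with a cell line left out (lowest without AOSN.B.COSN123), when 1 to 2 of the 9 were called (Gata6 joined without AOSN.COSN12 or CL20k). The slope passed at 17 loci, at 48 with 250 kb on each side, and at 13 to 41 with a cell line left out (41 without ATSS.BTSS.CTSS, and over 1.5 times as many also without A.BOSN12.BTSS.COSN123, A.BOSN12.COSN123, AOSN.BOSN12.COSN123, CL20k or Z.AOSN.COSN123). The Pax6 level was 0.315 with 250 kb on each side. The cell line effect on the level had an adjusted p of 0.0634 at Gata6 with centred profiles, while Neurog2 and Sox17 then passed (0.00706 and 0.0121), as they did without libraries that lack an autosome (0.0172 and 0.0317) and with single cell lines left out (Neurog2 without A.B.COSN123 or COSN1.2.8k, down to 0.00818, and Sox17 without A.B.COSN123, AOSN.B.COSN123, ATSS.BTSS.CTSS or COSN1.2.8k, down to 0.0288), Neurog2 with 250 kb on each side (0.0166) and Sox17 with the gene body alone (0.0343) or the median (0.0178). The causes were not tested.

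In the main fits replicate numbers were not taken to pair libraries. Over 55 pairs of clones, the levels of libraries with the same number deviated with r from -0.414 to 0.56 (median -0.00262). Some pairs of clones thus moved together and others apart. For the allele difference r ran from -0.109 to 0.223 (median -0.00698). Whether libraries with the same number share a run was not tested. With the number as a replicate block, over 24 numbered libraries of 11 clones, 2846 loci had a cell line effect on the level against 3515 without, and 805 against 886 on the difference, with 2 and 0 of the 9 either way. In these fits the library was the unit and repeat cultures of a clone counted as replicates, so the counts may be too high. COSN123 and A.BOSN12.BTSS.COSN123 are single clones there, so clone and deletion cannot be told apart in them. Since only ratios were at hand, counting error cannot be given, and the smallest differences are limited by the SD between libraries of a clone, 0.058 to 0.19 for the difference.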
